A study of Homo sapiens with 12 samples.

Results

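Sense-intronic long non-coding RNAs (lncRNAs) were examined with and without DMAG, a glucoside of a methylated ellagic acid from the burnet Sanguisorba. The cells carried the label HEL, the name of an established human erythroleukaemia line. The members were the 357 transcripts, of 356 genes, that the authors' table of annotated lncRNAs gave the type sense_intronic, out of 2819 transcripts in that table. RNA-Seq compared 3 control libraries, with no dose, day or vehicle recorded, with 3 libraries of cells given 40 µg/ml DMAG for 3 days. No separate cultures were named, so the tests measure the spread between these libraries, which may be technical. Levels are FPKM, fragments scaled for transcript length and for library size, and errors are SD with n = 3 per group. Changes are log2 differences, DMAG minus control, on the log2(FPKM + 0.1) scale for lncRNAs and log2(FPKM + 1) for mRNAs, which understates the change of low transcripts.

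A sense-intronic lncRNA lies within an intron of a protein-coding gene, its host, on the host's strand and without touching its exons. Such RNAs can have promoters of their own, be processed out of the host's precursor RNA or be unspliced precursor RNA that was annotated as a transcript. In libraries depleted of ribosomal RNA, which keep nuclear and unspliced RNA, fragments of the lncRNA and of the host's intron cannot be told apart, since both come from the same strand. In bulk RNA, fewer cells of a type and less RNA per cell cannot be told apart either.

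The HEL label was checked against lineage markers. HEL cells are known for erythroid and megakaryocytic traits, but GP9 was listed at 0 in all 6 libraries, GATA1 reached at most 0.142 FPKM and ITGA2B at most 0.330 FPKM, while the 8 granulocyte and monocyte markers had summed levels of 2543 to 2681 FPKM in the control group and 2045 to 2220 FPKM in the DMAG group. These 8 did not move together. MPO, PRTN3, ELANE and CTSG were lower in every DMAG library than in any control, and AZU1, LYZ, CLC and ITGAM were higher. The 9 erythroid markers reported summed to 0.190 to 0.713 FPKM in 5 libraries and to 1949 FPKM in DMAG replicate 3, of which HBB, the beta-globin gene, made up 1367 FPKM. The 6 megakaryocyte markers summed to at most 0.632 FPKM, the 4 lymphocyte markers to 2.23 to 3.76 FPKM, nearly all CD79A, and the 3 stromal markers to at most 1.96 FPKM. Relative depth, read from the steps of low mRNA values, lay between 0.974 and 1.104 of control replicate 1, and the absolute depth is unknown. Results are therefore also given without DMAG replicate 3.

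RefSeq start windows, 250 bases before to 50 bases after a start on GRCh38.p14, were at hand for both partners in 8 pairs, all on the same strand, with the intronic start 8261 to 197125 bases from the host start. The largest distance was that of BACH1-IT3, which lies outside the BACH1 span in RefSeq but is counted here among the intronic starts. RefSeq gives more than 1 start for 4 of the 8 hosts, and the most upstream start was taken. The windows chosen held 1 to 22 CpG sites at the intronic starts, median 2.5, and 11 to 47 at the host starts, median 35.5, where all 35116 windows had a median of 14. Over all 13 windows of the 8 hosts the range was 1 to 47, and 2 downstream ones, of BACH1 with 1 and of RASA3 with 10, held fewer than the intronic start of the pair. Windows are shown for the pairs with the largest fall-side and rise-side log2 differences among the 8, with each CG (searched as CG, which reads the same on both strands) in capitals. RASA3-IT1 lies at chr13:114109730-114110029 and its host RASA3 at chr13:114132574-114132873, and ITPKB-IT1 at chr1:226675019-226675318 and its host ITPKB at chr1:226739233-226739532, all on the minus strand and printed 5′ to 3′ along it.
RASA3-IT1: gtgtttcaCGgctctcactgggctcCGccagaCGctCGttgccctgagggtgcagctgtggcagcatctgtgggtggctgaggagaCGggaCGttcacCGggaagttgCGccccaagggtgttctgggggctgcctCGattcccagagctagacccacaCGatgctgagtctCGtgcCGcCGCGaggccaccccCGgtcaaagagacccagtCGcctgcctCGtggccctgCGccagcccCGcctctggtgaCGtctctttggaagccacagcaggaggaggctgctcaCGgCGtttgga
RASA3: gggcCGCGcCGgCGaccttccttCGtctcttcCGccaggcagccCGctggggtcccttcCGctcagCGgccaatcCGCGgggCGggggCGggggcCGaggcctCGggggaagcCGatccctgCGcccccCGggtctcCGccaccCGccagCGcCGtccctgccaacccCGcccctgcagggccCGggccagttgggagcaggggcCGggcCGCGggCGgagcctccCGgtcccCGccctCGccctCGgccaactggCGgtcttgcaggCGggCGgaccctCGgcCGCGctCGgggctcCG
ITPKB-IT1: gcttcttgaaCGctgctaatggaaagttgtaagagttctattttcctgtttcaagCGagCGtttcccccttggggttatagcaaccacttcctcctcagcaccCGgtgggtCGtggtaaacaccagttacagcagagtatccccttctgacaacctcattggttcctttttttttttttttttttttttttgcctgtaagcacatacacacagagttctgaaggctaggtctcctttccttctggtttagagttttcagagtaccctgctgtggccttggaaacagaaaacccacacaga
ITPKB: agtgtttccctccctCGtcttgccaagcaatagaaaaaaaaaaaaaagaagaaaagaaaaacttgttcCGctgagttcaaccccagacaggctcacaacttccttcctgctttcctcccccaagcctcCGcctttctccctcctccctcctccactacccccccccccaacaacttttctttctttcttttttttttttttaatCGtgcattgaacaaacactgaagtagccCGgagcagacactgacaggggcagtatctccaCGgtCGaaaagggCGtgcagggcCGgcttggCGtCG

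Among those 4 windows, RASA3-IT1 held 22 CG and its host 40, and ITPKB-IT1 held 5 and its host 11. GC content was 66.0% and 80.7% in the first pair and 44.7% and 50% in the second. RASA3-IT1, whose window was the richest in CG of the 8 intronic starts, lies in RASA3, which codes for a RAS GTPase-activating protein. ITPKB codes for an inositol trisphosphate kinase. Their levels are given with the other pairs.

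Most of these lncRNAs were scarce. The mean over the 6 libraries was under 1 FPKM for 116 members, 1 to 5 FPKM for 203, 5 to 20 FPKM for 37 and above 20 FPKM for 1, SCARNA10, with a median of 1.48 FPKM against 1.11 FPKM for all annotated lncRNAs. Values above 0 in all 6 libraries were found for 343 members. With DMAG the members' levels summed to 1529 ± 31.7 FPKM against 1400 ± 46.1 FPKM in controls, and without SCARNA10 to 848 ± 7.87 against 774 ± 24.6 FPKM. All annotated lncRNAs summed to 44997 to 54200 FPKM in control libraries and to 43721 to 46749 FPKM in DMAG libraries.

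Of the 353 members with a mean of at least 0.1 FPKM, 39 passed the test (limma, adjusted p under 0.05 over all 2746 annotated lncRNAs tested), 31 of them higher and 8 lower with DMAG. This was 11.0% of those tested, against 16.1% called over the whole table. In each direction the share was also below the table's, at 8.78% against 12.7% for higher and 2.27% against 3.42% for lower. The 31 rises ran from 0.44 to 1.69, with 14 of 1 or more, and the 8 falls ran from -0.33 to -0.92, with none of 1 or more. The other 314 tested members did not pass. CMB9-94B1.2, RP11-31F19.1, RP11-324I22.3 and STARD13-IT1 were below the filter.

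The direction of these counts depended on scaling. The FPKM medians of the annotated lncRNA table were shifted by 0.24 on the log2 scale between the groups, and scaling the libraries to the same median gave 10 higher and 22 lower members. These were 2.83% and 6.23% of those tested, below the 6.63% and 7.17% of the whole table in both directions. All 10 and the 8 members lower as deposited were among them, 14 were lower only after scaling, and 21 rises were lost. The members' median change was -0.12 after scaling, where the table's was -0.04, and 0.12 as deposited, where the table's was 0.20. Leaving out 1 library also cut the count of calls. It fell to 22, 23 and 24 without control replicates 1, 2 and 3, and to 15, 17 and 15 without DMAG replicates 1, 2 and 3. Over the whole table the 442 calls fell to 296, 313 and 330 without those controls, in that order. Without the DMAG libraries they fell to 206, 240 and 247, and all these fits had fewer samples. Of the 39 calls, 11 were kept without DMAG replicate 3, the library with globin RNA, 15 without each of the other DMAG libraries and 20 to 22 without a control.

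**Figure D1:**
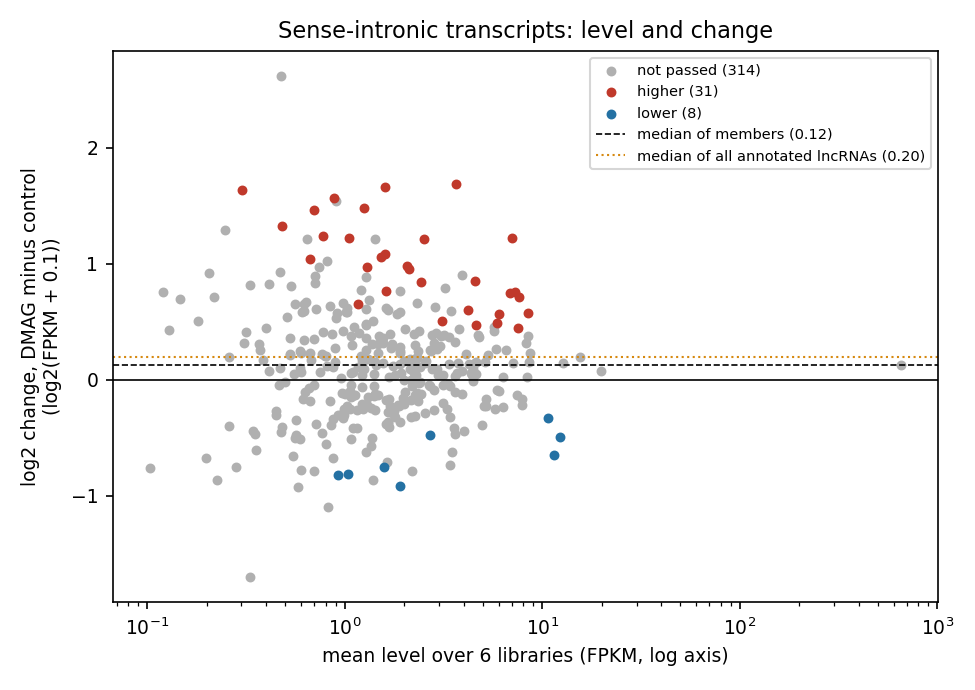
Mean level over 6 libraries (FPKM, log axis) against log2 change for the 353 tested sense-intronic transcripts, with the 31 higher in red, the 8 lower in blue and 314 that did not pass in grey. The members' median of 0.12 and that of all annotated lncRNAs, 0.20, are drawn as lines, and the point far to the right is SCARNA10.

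Precision followed level. With the 353 split evenly into 3 classes by mean level, 7.63% passed in the lowest class, where the median standard error was 0.331. In the middle class these values were 9.40% and 0.220, and in the highest 16.1% and 0.152. Groups did not overlap for 102 of the 353, or 28.9%, against 38.9% of all annotated lncRNAs tested, and all 39 called members were among them. DMAG lay above in 69 and below in 33, where the shares over the table were 28% and 10.9%.

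The rises that held in all 14 alternative settings, each library left out in turn among them, were led by AC006538.1, at 1.20, 2.17 and 1.71 FPKM in controls and 5.20, 5.04 and 6.5 FPKM with DMAG. Every DMAG library was above every control, a mean 3.29-fold higher, with a log2 change of 1.69 (SE 0.223, limma adjusted p = 0.0051). CTA-390C10.10 had the smallest adjusted p of the members. It stood at 4.79, 3.80 and 3.96 FPKM in controls and 10.3, 9.25 and 9.93 FPKM with DMAG, 2.35-fold higher by the means (log2 change 1.22, SE 0.119, limma adjusted p = 0.0033). Both groups were tight, and the gap between them was larger than either range.

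RP11-545P7.9 was at 0.485, 1.0 and 0.728 FPKM in controls and 2.81, 2.26 and 2.36 FPKM with DMAG (log2 change 1.66, limma adjusted p = 0.0082). RP11-830F9.7 rose by 1.08 from 1.21, 0.870 and 0.908 FPKM to 2.17, 2.43 and 2.02 FPKM. RP11-764D10.2 rose by 0.96 from 1.51, 1.34 and 1.38 FPKM to 2.63, 2.73 and 3.12 FPKM. In each of these 3, every DMAG library was above every control. RP11-81A1.6 rose by 0.75, from 5.46, 4.58 and 5.24 FPKM to 8.64, 9.20 and 7.97 FPKM. The files pair these members with clone names only, and their hosts were not identified here.

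The other rises among the 12 largest had means over the 6 libraries of 0.302 to 2.50 FPKM, the highest being that of CTC-435M10.12. RP11-1094M14.5 rose by 1.64 from 0.125, 0.0254 and 0.151 FPKM to 0.586, 0.524 and 0.401 FPKM, and RP11-589N15.2 rose by 1.57 from 0.701, 0.446 and 0.148 FPKM to 1.52, 1.18 and 1.27 FPKM, with the adjusted p nearest to the threshold (limma adjusted p = 0.0498). RP1-101A2.1 rose by 1.49, RP11-133K1.7 by 1.46 and AC002059.10 by 1.32. AP000356.2 rose by 1.24, CTD-2313J17.1 by 1.23 and CTC-435M10.12 by 1.22. In these 6 the control libraries lay between 0.217 and 1.95 FPKM and the DMAG libraries between 0.602 and 3.95 FPKM, and no pair of groups overlapped. Each of these 8 calls was lost without at least 1 of the 6 libraries. Those of AC002059.10 and RP11-1094M14.5 were lost with any 1 library left out, with limma adjusted p up to 0.098 and 0.13.

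The falls included 3 of the 10 most abundant members. RP11-417L19.6 fell from 15.6, 13.3 and 13.2 FPKM to 8.69, 9.0 and 8.99 FPKM, a mean 1.58-fold lower (log2 change -0.65, SE 0.096, limma adjusted p = 0.0080), and it held in every setting. RP11-540B6.6 fell from 14.6, 14.2 and 14.3 FPKM to 10.2, 10.1 and 10.3 FPKM (log2 change -0.50, limma adjusted p = 0.0080), the tightest groups of the 8 falls. RP11-380G5.2 fell by 0.33, from 12.3, 11.6 and 11.9 FPKM to 9.68, 9.79 and 8.85 FPKM, and its call was lost with any 1 library left out, with limma adjusted p of 0.069 to 0.11.

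At lower levels, CTB-26E19.1 fell by 0.92, from 2.47, 2.85 and 2.19 FPKM to 1.40, 1.02 and 1.45 FPKM. RP11-715J22.6 fell by 0.82, RP11-121A14.3 by 0.81, RP11-158G18.1 by 0.76 and RP11-817I4.1 by 0.48. Their control libraries lay between 0.945 and 3.26 FPKM and their DMAG libraries between 0.573 and 2.34 FPKM, without overlap within any member. Each of these 5 calls was lost without at least 1 library, and those of RP11-121A14.3 and RP11-817I4.1 with any 1 left out, at limma adjusted p up to 0.11 in both.

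**Figure D2:**
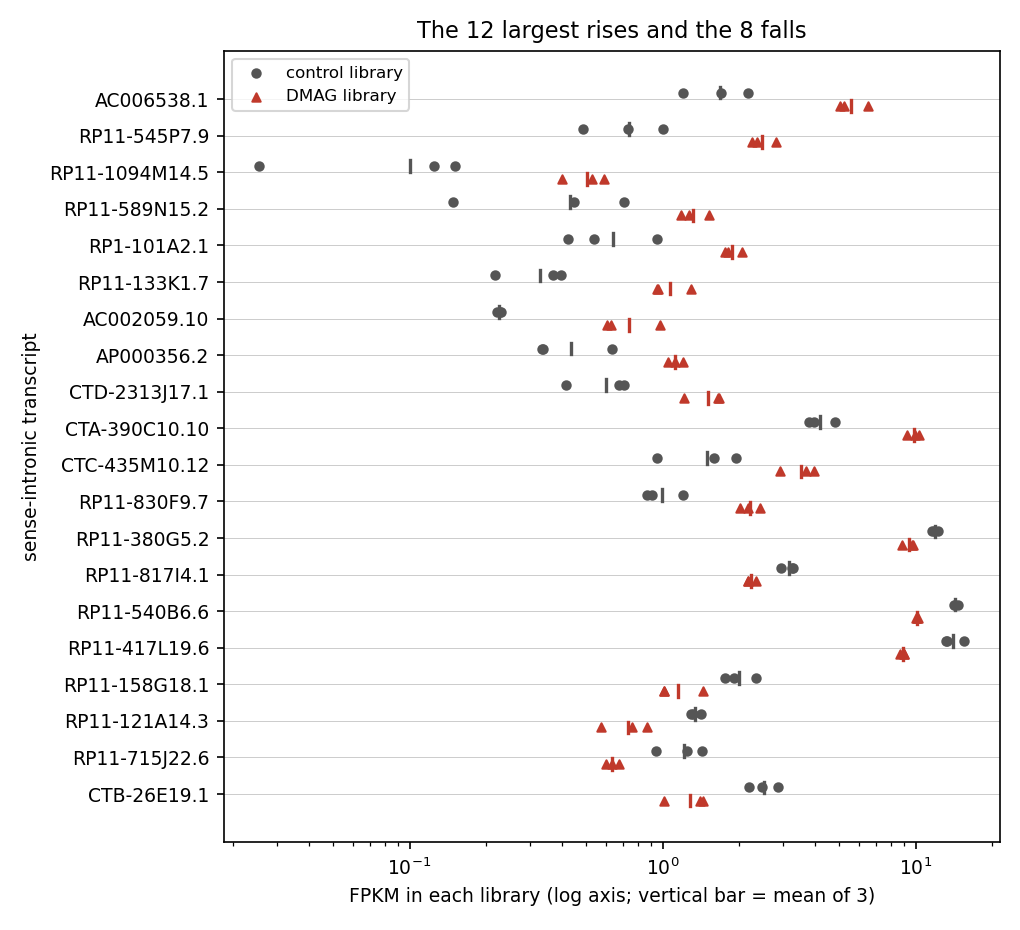
FPKM in each library (log axis) for the 12 largest rises and the 8 falls, controls as grey circles and DMAG libraries as red triangles, with a vertical bar at each group mean of 3. No member drawn has overlapping groups, and RP11-417L19.6, RP11-540B6.6 and RP11-380G5.2 lie furthest to the right.

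Of the 10 most abundant members 4 passed and 6 did not. SCARNA10, a small Cajal body RNA that belongs to the guides for modifying spliceosomal RNAs, was listed at 561, 666 and 651 FPKM in controls and 692, 707 and 643 FPKM with DMAG. The groups overlapped, and the difference of 0.12 had a 95% interval of -0.09 to 0.33 (limma adjusted p = 0.39). Being short, at 330 bases in RefSeq, it has a large FPKM per fragment. Its place on chromosome 12, 6510222 to 6510551 (GRCh38.p14), lies inside NCAPD2, a condensin subunit gene, which stood at 79.5 ± 3.07 FPKM in controls and 84.5 ± 1.19 FPKM with DMAG (limma adjusted p = 0.11).

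ANKRD10-IT1 came next in level, at 18.8, 20.0 and 19.2 FPKM in controls and 21.4, 20.8 and 19.0 FPKM with DMAG (log2 difference 0.08, limma adjusted p = 0.54). RP11-73M18.8 differed by 0.20, RP3-485C17.1 by 0.14, RP11-785H5.2 by 0.23 and CTD-2647L4.4 by 0.16, none past the threshold. RP11-192H23.8 rose by 0.58, from 7.54, 5.48 and 7.51 FPKM to 10.4, 10.2 and 9.86 FPKM (limma adjusted p = 0.033). This call was lost in 6 of 14 alternatives, among them each DMAG library left out and scaling to the same median (0.34, limma adjusted p = 0.15). The single gene with 2 transcripts, RP4-756H11.3, had differences of 0.58 and 0.17, and neither passed.

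Intronic transcripts named after their host carry the host's symbol followed by -IT. There were 40 of them, of 39 hosts, and 39 were tested, most listed under clone names and matched by gene ID. By limma, 1 was higher and 0 were lower, while 3 and 2 had an unadjusted p under 0.05 in those directions. Their median difference was 0.06, and that of the 314 other tested members, of which 38 were called, was 0.14. In controls they stood at 0.815% to 75.2% of the host mRNA's FPKM, median 11.1%, and in no pair above the host.

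Of the 38 hosts tested, 4 were higher and 9 lower with DMAG, or 34.2% called against 48.6% of all 10394 mRNA genes tested. Of these 13 host calls 8 held in all 10 alternatives, and those of ANKRD10, AMMECR1, FBXO36, PLCB1 and FAR1 were lost in 3 to 8 of them. Across the 39 pairs, 26 had log2 differences of the same sign and 13 of opposite sign. The 4 transcripts whose host was higher were all above 0, and 6 of the 9 whose host was lower were below 0. Pearson's r between the 2 differences was 0.50 and Spearman's rho 0.54 over the 39 pairs, a description without a test, since the points share the 6 libraries and may share host fragments.

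**Figure D3:**
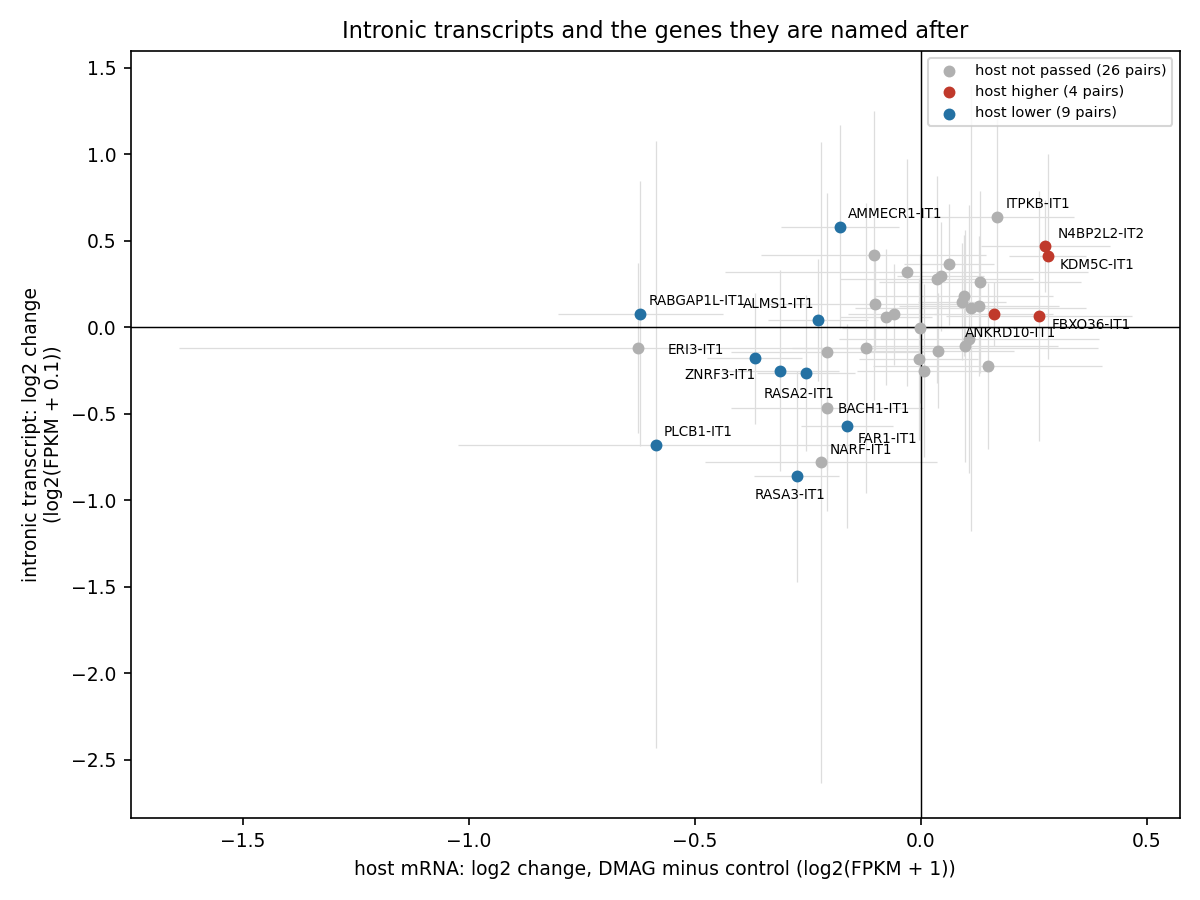
Log2 difference of the host mRNA (horizontal) and of its intronic transcript (vertical), DMAG minus control, for 39 pairs, with 95% intervals as grey lines and host calls in colour (4 higher, 9 lower, 26 pairs with a host that did not pass). Pairs with a called host or a transcript beyond 0.45 in size are named, and 26 points lie in the lower left or upper right quadrant.

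Among hosts that act on small GTPases, RASA3 was at 18.2, 17.7 and 18 FPKM in controls and 15.0, 14.5 and 14.4 FPKM with DMAG (log2 change -0.27, limma adjusted p = 0.0020). Its transcript RASA3-IT1, on chromosome 13 from 114106314 to 114109779 (GRCh38.p14), was at 2.01, 1.54 and 1.83 FPKM and then 0.778, 0.757 and 1.38 FPKM. The groups did not overlap, and the difference of -0.86 (SE 0.259) missed the threshold as deposited, with limma adjusted p = 0.066 (0.032 to 0.17 over the alternatives). It passed after scaling to the same median, after summing per gene and without DMAG replicate 3.

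RASA2, another RAS GTPase-activating protein gene, fell by 0.26, from 16.3 ± 0.326 to 13.5 ± 0.531 FPKM, and RASA2-IT1 differed by -0.26 with overlapping groups (limma adjusted p = 0.39). RABGAP1L, for a RAB GTPase-activating protein, fell by 0.62, from 14.4 ± 0.970 to 9.03 ± 0.730 FPKM, while RABGAP1L-IT1 lay between 0.282 and 0.547 FPKM in all libraries, with a difference of 0.08. SOS1, an exchange factor for RAS, and the small GTPase genes RHOA and CDC42 did not pass, nor did their transcripts, at 0.07, -0.12 and -0.12. The host CDC42 was at 171 FPKM in control replicate 1 against 59.2 and 55.0 FPKM in the other controls. ARHGAP26, ASAP1 and ACAP2, for GTPase-activating proteins, and their transcripts did not pass either, the latter at 0.32, -0.01 and 0.15.

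The one called -IT transcript was N4BP2L2-IT2, on chromosome 13 from 32504506 to 32509395 (GRCh38.p14), inside N4BP2L2. It was at 4.25, 3.57 and 3.73 FPKM in controls and 5.44, 5.54 and 5.09 FPKM with DMAG, so all DMAG libraries were above the controls (log2 change 0.47, SE 0.113, limma adjusted p = 0.033). The call was lost in 8 of 14 alternatives, with limma adjusted p of 0.021 to 0.22, and the host rose by 0.27, from 9.62 ± 0.580 to 11.8 ± 0.494 FPKM.

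KDM5C, a histone H3 lysine demethylase gene, rose by 0.28, from 21.4 ± 0.267 to 26.2 ± 0.574 FPKM, and KDM5C-IT1 differed by 0.41, from 0.558, 0.589 and 0.797 FPKM to 0.690, 0.988 and 1.01 FPKM, with overlap. BACH1, a haem-responsive transcriptional repressor gene, went from 28.3 ± 3.62 to 24.3 ± 0.524 FPKM without passing. BACH1-IT1 was at 4.33, 4.75 and 3.52 FPKM and then 3.30, 2.71 and 2.96 FPKM. Its groups did not overlap, at a difference of -0.47 (limma adjusted p = 0.078), which passed after scaling, at 0.026. BACH1-IT3 differed by -0.14. The transcripts of KLF7, ASH1L, RSF1, HMBOX1, GABPB1 and ZNF346 differed by -0.25 to 0.18 without passing.

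Hosts of RNA decay and ubiquitin transfer included ERI3, an exoribonuclease gene, which fell by 0.37, from 36.3 ± 1.69 to 27.9 ± 0.356 FPKM, while ERI3-IT1 differed by -0.18. ZNRF3, a ubiquitin ligase gene that limits WNT receptors, fell by 0.31 and ZNRF3-IT1 differed by -0.25. FBXO36, an F-box protein gene, rose by 0.26, from 0.793 ± 0.139 to 1.15 ± 0.10 FPKM, 1.45-fold by the means, and FBXO36-IT1 differed by 0.06. The FBXO36 call was lost in 6 of 10 alternatives, among them every library left out but control replicate 2, with limma adjusted p up to 0.12. RC3H1 codes for roquin, which marks mRNAs for decay. RC3H1-IT1 was at 4.26, 4.22 and 3.99 FPKM and then 5.88, 6.09 and 4.36 FPKM, a difference of 0.37 (limma adjusted p = 0.14, and 0.049 without DMAG replicate 3). TRIM36-IT1 differed by 0.41 at 0.164 to 0.465 FPKM.

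Among signalling and metabolic hosts, ITPKB-IT1 was at 0.601, 0.841 and 0.491 FPKM in controls and 1.09, 1.02 and 1.01 FPKM with DMAG. The groups did not overlap, and the difference of 0.64 did not pass (limma adjusted p = 0.12), nor did that of ITPKB, 0.17. PLCB1, for a phospholipase C, fell by 0.59 on the log2(FPKM + 1) scale, from 1.16 ± 0.532 to 0.409 ± 0.032 FPKM, 2.84-fold lower by the means. PLCB1-IT1 differed by -0.68 on the log2(FPKM + 0.1) scale, within a wide interval of -2.43 to 1.08. The PLCB1 call was lost with every library left out but control replicate 2, with limma adjusted p up to 0.094. Over all libraries left out in turn, control replicate 2 included, the PLCB1 change ran from -0.41 to -0.78. FAR1, a fatty acyl-CoA reductase gene, fell by 0.16 and FAR1-IT1 differed by -0.57 (limma adjusted p = 0.17). The FAR1 call was lost without DMAG replicate 1 or 2 (limma adjusted p = 0.062 and 0.052). AMMECR1 fell by 0.18 while AMMECR1-IT1 differed by 0.58, from 0.375, 0.513 and 0.508 FPKM to 0.787, 0.808 and 0.638 FPKM, opposite in sign to its host (limma adjusted p = 0.15). The AMMECR1 call was lost in 7 of 10 alternatives, among them scaling and every library left out but DMAG replicate 1, with limma adjusted p up to 0.098. ALMS1, a centrosomal protein gene, fell by 0.23 and ALMS1-IT1 differed by 0.04. ANKRD10, the host of the most abundant -IT transcript, rose by 0.16, a call lost with any 1 library left out (limma adjusted p up to 0.12).

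The remaining -IT transcripts, of ALG9, ANKRD44, ATG10, DHRSX, EIPR1, HLCS, HM13, NARF and NPTN, had differences of -0.78 to 0.29, and none passed, nor did their hosts. In NARF-IT1 the size of the difference rested on control replicate 3, at 2.28 FPKM against 0.154 to 0.350 FPKM in the other 5 libraries, and it was 0.17 without that library.

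RefSeq held a gene entry for 25 members, and 21 of these lay within the span of a protein-coding gene. Of the 14 -IT transcripts among them 13 lay inside the host in their name, and BACH1-IT3 lay outside the BACH1 span. Members named otherwise included DLEU2L inside EFCAB7, ST7-OT4 inside ST7, MYCBP2-AS2 inside MYCBP2, INE1 inside UBA1, DGCR11 inside DGCR2 and MIR600HG inside STRBP. MYCBP2-AS2 carries a symbol for an antisense RNA although the table types it as sense-intronic.

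EFCAB7 rose from 2.44 ± 0.151 to 3.59 ± 0.399 FPKM (limma adjusted p = 0.0075), and DLEU2L, at 0.911, 0.877 and 1.08 FPKM and then 1.42, 1.31 and 0.914 FPKM, overlapped between groups. ST7 rose from 10.0 ± 1.27 to 13.0 ± 1.15 FPKM, which did not pass without DMAG replicate 1 or 3 or control replicate 1 or 2 (limma adjusted p up to 0.096), while ST7-OT4 differed by 0.04. MYCBP2, for a ubiquitin ligase, fell by 0.29, from 112 ± 4.84 to 91.2 ± 1.63 FPKM, and MYCBP2-AS2 differed by -0.22 with overlap. INE1, DGCR11 and MIR600HG, at -0.26, 0.44 and 0.22, did not pass, nor did their hosts.

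KB-318B8.7, which RefSeq lists as a synonym of CABIN1, a calcineurin inhibitor gene, was named for its place after its values were seen. It rose from 4.71, 5.12 and 4.88 FPKM to 6.59, 7.19 and 7.02 FPKM (log2 change 0.49, limma adjusted p = 0.017), and every DMAG library was above the controls. CABIN1 mRNA fell by 0.25, from 37.2 ± 3.05 to 31.1 ± 1.73 FPKM (limma adjusted p = 0.030), which did not pass without DMAG replicate 1 or 2 or control replicate 2 or 3 (limma adjusted p up to 0.089). The rise of KB-318B8.7 did not pass in 5 of 14 alternatives. Among them were leaving out DMAG replicate 2 or 3 and scaling to the same median, at a limma adjusted p of 0.13. Over the alternatives its limma adjusted p ranged from 0.0096 to 0.13.

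Clone names place some members near each other, since a clone is a stretch of genomic DNA. Of the 342 members with a clone name, 32 lay on 16 shared clones, 2 on each, and 12 of the 16 pairs had differences of the same sign. Among these 12 were the 2 transcripts of the single gene RP4-756H11.3. Over all members tested, 214 differences were above 0 and 139 below, and the sharing of signs was not tested. RP11-133K1.7, which rose by 1.46, shared a clone with RP11-133K1.12, whose difference of 1.22 did not pass (limma adjusted p = 0.24). RP11-817I4.1, which fell by 0.48, was paired with RP11-817I4.2 at -0.17. CTC-435M10.12 rose by 1.22 while CTC-435M10.10 differed by -0.32, which did not pass (limma adjusted p = 0.52).

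The members' median change was 0.12, with quartiles of -0.20 and 0.42, against 0.21 for 966 antisense and 0.29 for 677 intergenic (lincRNA) transcripts, of which 18.8% each were called. The 52 tested transcripts typed sense_overlapping had a median of 0.17, with 11.5% called. For 355 typed processed_transcript these values were 0.07 and 14.1%, and for 141 typed misc_RNA 0.09 and 4.96%. For 167 typed TEC they were 0.15 and 15.6%, and for 23 typed bidirectional_promoter_lncRNA 0.44 and 17.4%. A low share and a small median were thus not particular to the members. The members' median standard error was 0.228, and that of the other annotated lncRNAs was 0.283. Intronic lncRNAs that the authors assembled without an annotated gene lay lower, with a median change of -0.57 over 4132 tested, 1 called higher and 30 lower. The whole table of unannotated lncRNAs had a median change of -0.44, and 2.13% of it was called, 1.47% higher and 0.66% lower. Its summed FPKM was 4249 to 4834 in control libraries and 12655 to 15317 in DMAG libraries, and these changes are as deposited. The median level of the unannotated intronic lncRNAs per library was 0.432 to 0.518 FPKM in controls and 0.221 to 0.349 FPKM with DMAG, while that of the members was 1.38 to 1.48 and 1.47 to 1.6 FPKM. These tables were tested apart, and the differences between types were not tested.

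**Figure D4:**
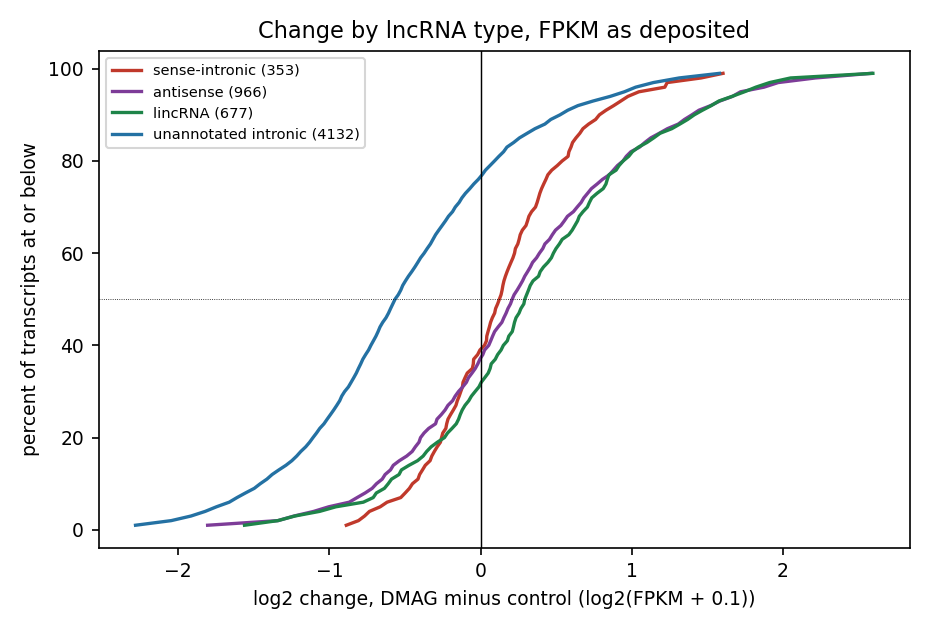
Percent of transcripts at or below each log2 change for 353 sense-intronic, 966 antisense, 677 lincRNA and 4132 unannotated intronic transcripts, FPKM as deposited. Of these 4 curves the sense-intronic one is the steepest, and it crosses 50% at 0.12, and the unannotated intronic curve crosses at -0.57.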

How the data were processed

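RNA-Seq libraries of cells labelled HEL, 3 control and 3 DMAG, were compared. Per the labels' protocols, RNA was depleted of ribosomal RNA and the second strand was made with dUTP; whether counting used strand is not stated. HISAT2 2.0.4, StringTie 1.3.3, Bowtie and GRCh38 are named, without roles, in the submitters' processing notes. The authors deposited FPKM per transcript for mRNAs, annotated lncRNAs and unannotated lncRNAs. Tables of miRNAs and circular RNAs were not used here.

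From these, annotated lncRNAs averaging 0.1 FPKM or more entered a limma 3.58.1 fit on log2(FPKM + 0.1) (R 4.3.3, empirical Bayes with a mean trend, Benjamini-Hochberg over all 2746, threshold 0.05), and unannotated lncRNAs likewise in their own table. For hosts, mRNA FPKM was added up by gene, and the 10394 genes averaging 0.5 FPKM or more were fitted likewise on log2(FPKM + 1). In simulated data, the fit over 2746 annotated lncRNAs recovered 29.5% of 200 changes of 1 (log2), and 4.84% of calls were false. Members that did not pass may thus have changed. That recovery was over the whole table, with a median standard error of 0.275, and not for the members alone, at 0.228.

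The members and lists were chosen with earlier results of these data known. Named were the 12 largest rises and up to 12 largest falls called, the 10 most abundant, all -IT transcripts with hosts, and genes with 2 transcripts; RP11-764D10.2, RP11-81A1.6, the members placed by RefSeq and those on shared clones were added after their values were seen. Current symbols were matched by gene ID for 342 members. Places and windows are RefSeq's (GRCh38.p14); no genome sequence was used. One listed erythroid marker is not reported here. Alternatives were other pseudocounts, filters and scalings, no mean trend, sums per gene, the replicate number as a block, and each library left out in turn.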

Additional observations from a re-analysis of the deposited data

How the results depend on the processing

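The count of sense-intronic calls, 39, fell to 20 with the replicate number as a block (17 higher, 3 lower). Of the 39, 17 were kept, and the whole table had 254 calls in place of 442. Same-numbered libraries deviated together with a correlation of at most 0.043 in either table. Each deviation was taken from a mean of 3 libraries, so these correlations cannot show whether same-numbered libraries shared a culture or batch. Without the mean trend 26 were called, 4 of them lower. With FPKM summed per gene the count rose to 51, 38 higher and 13 lower, and that of the whole table to 502. After scaling to the same median 10 were higher and 22 lower and the median change was -0.12. With 1 library left out, calls ranged from 15 to 24 (11 to 21 higher, 2 to 4 lower), calls over the table from 206 to 330, and the median change from 0.097 to 0.13; these fits had fewer samples. Of the 39 calls, 7 held in every alternative and 9 with each library left out. Calls of unannotated intronic lncRNAs, 31, became 14 after scaling, 5 with the block, and 6 to 37 with 1 library left out. Changing pseudocounts or filters kept 35 to 38 of the 39 calls, except that 2 of the 39 were not tested at a mean of 0.5 FPKM. No alternative reversed a called member.

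Uncalled differences that changed sign were: after scaling, RP11-73M18.8 to -0.040, RP11-785H5.2 to -0.0089, CTD-2647L4.4 to -0.084, SCARNA10 to -0.12, RP3-485C17.1 to -0.10, ZNF346-IT1 to -0.059, GABPB1-IT1 to -0.10, ACAP2-IT1 to -0.091, ANKRD10-IT1 to -0.16, RP4-756H11.3 to -0.074, HM13-IT1 to -0.12, SOS1-IT1 to -0.16, ASH1L-IT1 to -0.18, ALMS1-IT1 to -0.20, RABGAP1L-IT1 to -0.16, FBXO36-IT1 to -0.18, ATG10-IT1 to -0.13, MIR600HG to -0.023 and ST7-OT4 to -0.20, with the hosts ALG9 to 0.014 and ASAP1 to 0.017; and at a pseudocount of 1 FPKM ATG10-IT1 to -0.0077. With 1 library left out, the ranges that crossed 0 were CDC42-IT1 -0.31 to 0.034, ASH1L-IT1 -0.047 to 0.14, RHOA-IT1 -0.30 to 0.24, FBXO36-IT1 -0.15 to 0.29, ATG10-IT1 -0.38 to 0.72, HM13-IT1 -0.015 to 0.22, DHRSX-IT1 -0.27 to 0.10, ALMS1-IT1 -0.059 to 0.12, RABGAP1L-IT1 -0.10 to 0.24, ASAP1-IT2 -0.14 to 0.10, NARF-IT1 -1.45 to 0.17, SOS1-IT1 -0.0091 to 0.12, HMBOX1-IT1 -0.33 to 0.15, BACH1-IT3 -0.48 to 0.30 and ST7-OT4 -0.053 to 0.14, with the hosts KLF7 -0.014 to 0.039, ARHGAP26 -0.19 to 0.072, HLCS -0.056 to 0.080, ALG9 -0.057 to 0.023, EIPR1 -0.0060 to 0.11, ASAP1 -0.054 to 0.057 and GABPB1 -0.16 to 0.0063. The cause was not tested. The depth behind FPKM is unknown, so no limit can be set on values of 0.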

Other observations

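RP11-359K18.4 was listed at 0 in all 3 control libraries and in DMAG replicate 3, and at 1.29 and 1.58 FPKM in DMAG replicates 1 and 2; it was chosen after its values were seen, and it did not pass (limma adjusted p = 0.14, and 0.015 without DMAG replicate 3). RP11-57H14.3, which RefSeq lists as LINC02935 with no protein-coding gene spanning it, had the most negative difference of the members, -1.70, without passing (limma adjusted p = 0.097).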
